A study of Mus musculus with 2 samples.

Results

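The EGF receptor family was described in bulk RNA-seq of whole mouse kidney. Its members were 10 listed genes, matched by symbol to the gene table: the ligands Egf, Hbegf, Areg, Ereg, Tgfa and Btc, and the receptors Egfr, Erbb2, Erbb3 and Erbb4. Of these 10, 8 were analysed among the 20002 genes of the table, 4 ligands and 4 receptors, while Areg and Ereg were not analysed here. All 8 passed the filter of at least 10 scaled reads in 1 library. The study addressed the role of Regnase-2, an endoribonuclease encoded by Zc3h12b, in the proximal tubule. There was 1 library from Reg-2 CKO mice and 1 from control mice. The CKO mice received AAV9, an adeno-associated virus, carrying a short hairpin RNA (shRNA) against Regnase-2 through the tail vein at 11 weeks of age. The controls received AAV9 with an empty vector according to the AAV9 methods, or with control shRNA according to the RNA-seq methods.

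Several features limited these groups as a model. The CKO mice were made by knockdown with shRNA and carried no described deletion, and AAV9 given this way reaches mainly, but not solely, the proximal tubule. RNA came from the left kidney. The RNA-seq methods gave an age of 14 weeks, whereas the AAV9 methods gave harvest at 16 weeks. Whether a library came from 1 mouse or from a pool, and the sex of these mice, were not stated. With 1 library in each group, no test between the groups was possible, no difference has a replicate check, and the intervals given are for counting error only.

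The ErbB receptors are tyrosine kinases that pair with each other after a ligand binds and signal through the RAS-ERK and PI3K-AKT pathways. Their ligands are made as membrane-anchored precursors and released by metalloproteases of the ADAM family. Erbb2 has no known ligand of its own and serves as a partner, whereas Erbb3 has a weak kinase and signals mainly through such partners. In the kidney, Egf is made chiefly in the thick ascending limb and distal convoluted tubule, is shed into the urine, and stimulates magnesium uptake through the channel Trpm6.

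The deposited values were whole numbers that started at 35 (control) and 51 (CKO). To obtain reads, 34 and 50 were subtracted, on the inference that each column holds read counts with a constant added, and the intervals for counting error rest on it. The control library then totalled 38851231 reads (median 284 per gene) and the CKO library 43588721 (median 513.5). All CKO reads were scaled by the median gene ratio, 0.667. A log2 ratio is that of scaled CKO reads to control reads, each with 1 added. Zc3h12b, the targeted gene, had 47 control reads and 59 CKO reads. Its log2 ratio of -0.25 had a 95% Clopper-Pearson interval from -0.83 to 0.33, and its sign turned with equal library totals (0.16) and with the values as deposited (0.42). No difference was detectable at this depth. The labels are therefore not checked by the mRNA of the targeted gene, and the second library is called the library labelled CKO. At the protein level, by immunofluorescence, the paper reports less Regnase-2 in proximal tubules of CKO mice. By immunostaining, it reports more NGAL, the protein encoded by Lcn2, in CKO kidneys. Lcn2, named after its value was seen, had 28 control reads and 3797 CKO reads, the direction that the labels give.

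Markers of kidney segments were set beside the labelled tissue. All 10 proximal tubule markers, 7 of the thick ascending limb, 7 of the distal convoluted tubule, 9 of the collecting duct and 5 of podocytes passed the filter. None of them had 3 or fewer reads in either library, whereas 1422 (control) and 963 (CKO) of all 20002 genes did. Because 17469 of the 20002 genes passed the filter, these counts could hardly have come out otherwise and do not check the tissue. In the control library the most abundant marker per transcript length was Miox for the proximal tubule, Umod for the thick ascending limb and Aqp2 for the collecting duct.

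In outline, Egf was lower in the library labelled CKO and Hbegf, Btc and Tgfa were higher, while among the receptors Erbb4 and Erbb2 were higher, Egfr was nearly level and Erbb3 was lower, the latter pair turning positive with equal totals and as deposited. None of the 8 members differed by 2-fold or more. Among all 17469 genes past the filter, the library labelled CKO was higher by 2-fold or more for 2334 (13.4%) and lower by 2-fold or more for 934 (5.35%), so counts of 0 among 8 genes say little about the family. By sign alone, 5 members were higher and 3 lower, beside 51.5% higher over all genes tested, so this count also says little about the family. The median log2 ratio of the members was 0.32 against 0.022 for all genes tested. With equal totals, and also as deposited, 7 members were higher and 1 lower, because Egfr and Erbb3 changed sign. In whole kidney RNA, fewer cells of a type and less RNA per cell cannot be told apart.

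Some of these signs depended on how the libraries were scaled. The median log2 ratio of all genes moved from 0.022 to 0.44 with equal totals and to 0.57 with the values as deposited. Of the genes past 2-fold, 71.4% were higher under the main scaling, against 89.9% with equal totals and 96.5% as deposited. Taking ratios relative to the median of all genes cancels any single scaling factor by construction, so the values below can differ only through the filter, the pseudocount and the constants. Over the main scaling, equal totals, equal upper quartiles, subtraction of the column minimum and the deposited values, Egf lay between -0.83 and -0.79, Erbb3 between -0.43 and -0.38, and Egfr between -0.035 and 0.0067. Erbb4 lay between 0.60 and 0.62, and Hbegf between 0.51 and 0.52. Egf and Erbb3 were thus below the median gene and Erbb4 and Hbegf above it, whereas Egfr lay close to it.

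**Figure D1:**
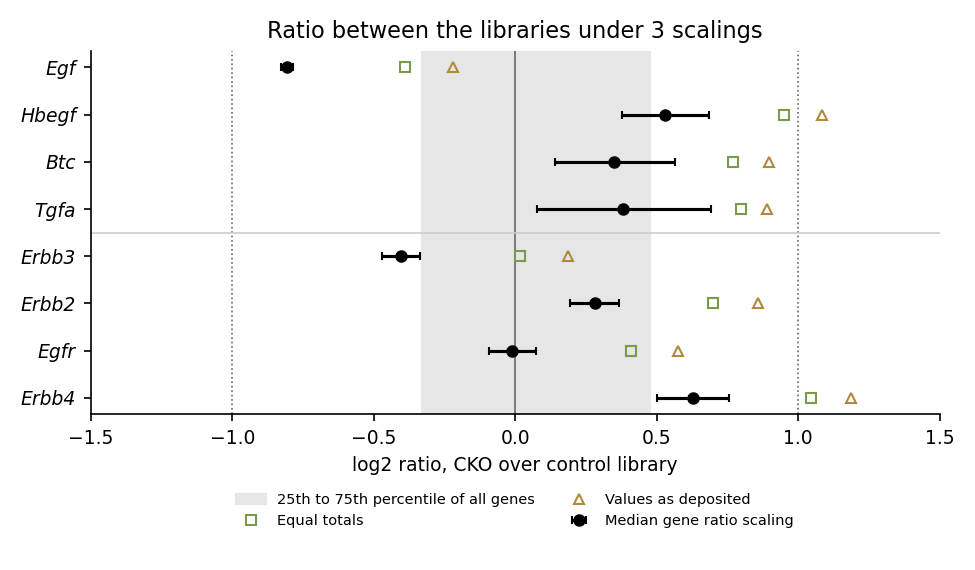
Log2 ratio of the library labelled CKO over the control library for 4 ligands (top) and 4 receptors (bottom), 1 library each. Black points show the main scaling with 95% Clopper-Pearson intervals for counting error, squares equal totals, triangles the values as deposited, the grey band the 25th to 75th percentile of all genes past the filter, and dotted lines 2-fold; Egf is below 0 under each of these scalings, while Egfr and Erbb3 change sign.

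Egf (gene ID 13645; chr3:129677574-129755322, minus strand, GRCm38.p6 as for all positions) encodes the precursor of epidermal growth factor. It had 35348 control reads and 30311 CKO reads. After scaling, its level was 0.572-fold that of the control (95% interval 0.563 to 0.581), a log2 ratio of -0.81. The ratio stayed negative under every alternative, and was nearest to 0 at -0.22 with the values as deposited. Of all genes tested, 8.04% had a lower ratio. Egf was nevertheless similar to other abundant genes: among the 192 genes with control reads within 2-fold of its own, 89 had a lower ratio, and their median was -0.74. The genes of this set with the closest ratios were Abca3, Slc17a1, Slc25a39, Tmbim6 and Gpd1, from -0.80 for Abca3 to -0.82 for Gpd1. These likenesses rest on 2 libraries only. Antisense genes overlap some Egf exon bases in the GENCODE M21 annotation, 4.43% for 6330410L21Rik and 5.38% for Gm42697, and the strand setting of the authors' counting was not stated.

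Hbegf (gene ID 15200; chr18:36504927-36515805, minus strand) encodes heparin-binding EGF-like growth factor, a ligand of Egfr and Erbb4. It had 509 control reads and 1103 CKO reads. This was 1.44-fold higher after scaling (95% interval 1.30 to 1.61), a log2 ratio of 0.53. Btc (gene ID 12223; chr5:91357261-91402994, minus strand), which encodes betacellulin, another ligand of both receptors, had 280 and 536 reads. Its ratio was 1.28-fold (1.10 to 1.48). Tgfa (gene ID 21802; chr6:86195038-86275744, plus strand), which encodes the Egfr ligand transforming growth factor alpha, had 135 and 264 reads and a ratio of 1.30-fold (1.06 to 1.62). These 3 ligands were higher in the library labelled CKO under every alternative tried, and under the main scaling none of their intervals reached 1. The alternative scalings mostly raised the CKO values: their factors ran from 0.658 to 1, beside 0.667 in the main one. Ratios this far above 1 could hardly turn under them, so the kept direction is no check of it. Their ratios to each other differed by less than counting error: the ratio of Hbegf to Tgfa reads went from 3.77 (control) to 4.18 (CKO), a change of 1.11-fold (0.871 to 1.41), that of Hbegf to Btc changed 1.13-fold (0.943 to 1.36), and that of Tgfa to Btc changed 1.02-fold (0.788 to 1.33).

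Ratios between genes of the same library do not depend on the scaling. Each Hbegf read was matched by 69.4 Egf reads in the control library but 27.5 in the library labelled CKO, a change of 0.396-fold (95% interval 0.356 to 0.440). The corresponding changes were 0.438-fold (0.356 to 0.540) for Egf to Tgfa and 0.448-fold (0.387 to 0.518) for Egf to Btc. The balance among the 4 ligand mRNAs was therefore different in these libraries, with a smaller lead of Egf. Egf held 97.5% of the reads of the 4 ligands in the control library (95% Clopper-Pearson interval 97.3 to 97.6) and 94.1% in the library labelled CKO (93.8 to 94.3). The share of Hbegf was 1.40% and 3.42%, that of Btc 0.772% and 1.66%, and that of Tgfa 0.372% and 0.820%. Egf thus remained the predominant ligand mRNA by far.

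The start regions of the members are shown because Egf and Btc lay on opposite sides of the median gene and Egfr lay at it. Windows of 250 bases directly upstream of a RefSeq start site in GRCm38.p6 were matched for 6 of the 8 members. Those printed here overlap no annotated exon of a coding gene, although the Egf window overlaps an exon of the antisense gene 6330410L21Rik. Both strands were searched for the GC box GGGCGG, found in 32.7% of all 32851 windows, the TATA box TATAAA (12.4%), the AP-1 site TGANTCA (6.75%) and the CCAAT box (33.8%). Capitals mark a match, and each sequence is given 5′ to 3′ on the strand of its gene. The windows are Egf at chr3:129755323-129755572 (minus strand), Btc at chr5:91402995-91403244 (minus strand) and Egfr at chr11:16751953-16752202 (plus strand).
Egf: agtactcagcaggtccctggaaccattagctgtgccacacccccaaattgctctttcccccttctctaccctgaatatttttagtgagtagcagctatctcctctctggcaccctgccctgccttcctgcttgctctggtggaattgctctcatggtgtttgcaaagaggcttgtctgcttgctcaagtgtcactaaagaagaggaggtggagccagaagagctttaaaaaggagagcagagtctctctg
Btc: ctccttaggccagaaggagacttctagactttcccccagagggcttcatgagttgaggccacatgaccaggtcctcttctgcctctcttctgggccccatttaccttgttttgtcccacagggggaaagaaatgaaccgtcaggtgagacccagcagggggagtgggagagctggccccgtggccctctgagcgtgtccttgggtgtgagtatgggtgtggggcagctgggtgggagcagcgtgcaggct
Egfr: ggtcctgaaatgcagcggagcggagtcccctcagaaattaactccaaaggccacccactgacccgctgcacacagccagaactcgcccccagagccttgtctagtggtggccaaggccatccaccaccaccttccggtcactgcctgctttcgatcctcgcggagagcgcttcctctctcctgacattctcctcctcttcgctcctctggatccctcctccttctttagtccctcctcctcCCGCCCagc
Of these 3 windows only that of Egfr held a match, a GC box 9 bases before the start site in its reverse complement CCGCCC. Among the windows not printed, that of Tgfa held 2 GC boxes, that of Erbb2 held 1 CCAAT box, and those of Erbb4 and of a start site inside Egf held none of these motifs. The GC content was 50.4% for Egf, 59.6% for Btc and 60.8% for Egfr, against a median of 52.4% over all windows. A match is a description of these letters, and nothing about a factor is drawn from it or from its absence.

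Egfr (gene ID 13649; chr11:16752203-16913907, plus strand) encodes the receptor that binds Egf, Tgfa, Hbegf and Btc. It had 1965 control reads and 2925 CKO reads, a log2 ratio of -0.011 with an interval from -0.094 to 0.072 that held 0, although its sign turned with equal totals (0.41), equal upper quartiles (0.020) and the values as deposited (0.57). Erbb2 (gene ID 13866; chr11:98412484-98437716, plus strand), the partner receptor, had 1657 and 3019 reads and was 1.21-fold higher (95% interval 1.14 to 1.29). Its direction was the same under every alternative, but the scaling factors used could hardly have turned it. Erbb3 (gene ID 13867; chr10:128567523-128589635, minus strand) binds neuregulins. It had 3387 and 3842 reads and a ratio of 0.756-fold (0.722 to 0.792), whose log2 value of -0.40 turned to 0.016 with equal totals and 0.19 as deposited. Erbb4 (gene ID 13869; chr1:68031884-69108576, minus strand), a receptor for both neuregulins and some of the EGF-like ligands, had 727 and 1685 reads. Its ratio of 1.55-fold (1.42 to 1.69), a log2 ratio of 0.63, was the highest of the 8 members and exceeded that of 79.4% of all genes tested. It passed 2-fold with equal totals (1.05) and as deposited (1.19), and Hbegf did so with the values as deposited (1.09).

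The receptors also differed in their balance, whatever the scaling. Erbb3 held 43.8% of the reads of the 4 receptors in the control library (95% interval 42.7 to 44.9) and 33.5% in the library labelled CKO (32.6 to 34.4). Erbb2 held 21.4% and 26.3%, and Erbb4 9.40% and 14.7%. For Egfr the shares were 25.4% (24.4 to 26.4) and 25.5% (24.7 to 26.3), a difference within counting error. The ratio of Erbb4 to Erbb3 reads was 0.215 (control) and 0.439 (CKO), a change of 2.04-fold (1.85 to 2.26). Erbb2 to Erbb3 changed 1.61-fold (1.49 to 1.73) and Egfr to Erbb3 changed 1.31-fold (1.22 to 1.41). Among ligands set against Egfr, their shared receptor, the ratio of Egf changed 0.576-fold (0.543 to 0.611) and that of Hbegf 1.46-fold (1.29 to 1.64).

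**Figure D2:**
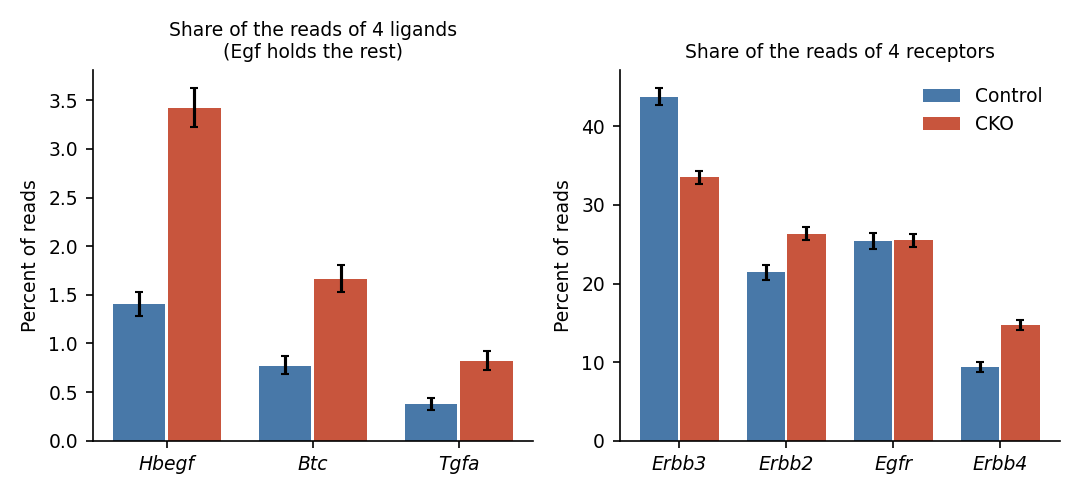
Percent of the reads of the 4 ligands (left, with Egf holding the rest) and of the 4 receptors (right) that belonged to each gene, for the control and CKO libraries, 1 each. Error bars are 95% Clopper-Pearson intervals for counting error; Hbegf took 1.40% and 3.42% of ligand reads, and Erbb3 43.8% and 33.5% of receptor reads.

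Levels were compared between genes as reads per kilobase of the longest transcript per 1000000 reads (RPKM), with exact Poisson intervals. These levels divide by each library's own total and so follow the equal totals scaling, not the main one. In the control library Egf stood at 191 RPKM (189 to 193), rank 275 of the 17820 genes with a length. Erbb3 followed at 14.5, Erbb2 at 8.51, Egfr at 4.95, Hbegf at 4.53, Btc at 1.79, Erbb4 at 1.55 and Tgfa at 0.768. The intervals of the neighbours Egfr and Hbegf overlapped, as did those of Btc and Erbb4, so these pairs could not be ordered. In the library labelled CKO, Egf stood at 146 RPKM, rank 360, followed by Erbb3 at 14.7, Erbb2 at 13.8, Hbegf at 8.76, Egfr at 6.57, Erbb4 at 3.21, Btc at 3.05 and Tgfa at 1.34. There Erbb3 and Erbb2 overlapped, as did Erbb4 and Btc, while Hbegf stood above Egfr beyond counting error. The order depended on the transcript used: with the shortest coding transcript of each gene, the control level of Egfr became 109, that of Erbb4 8.52 and that of Tgfa 8.48.

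**Figure D3:**
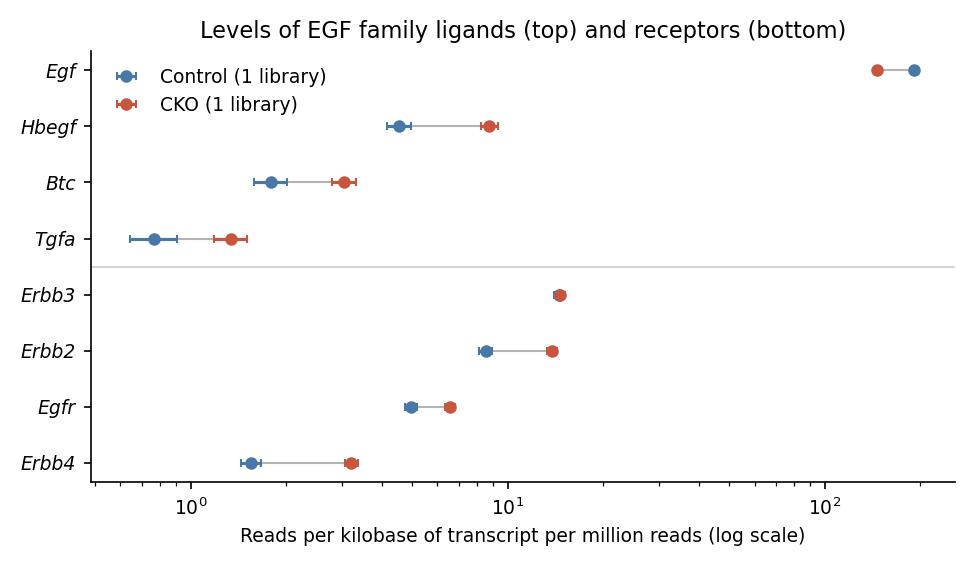
Level of each ligand (top) and receptor (bottom) in reads per kilobase of the longest transcript per 1000000 reads, on a log axis, for the control library and the library labelled CKO, 1 library each. Horizontal bars are exact 95% Poisson intervals for counting error; Egf stood at 191 and 146, more than any other member in both libraries.

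Other ErbB ligands comprised the neuregulins and Epgn, of which 3 of 5 were analysed, and Epgn and Nrg3 were not analysed here. Nrg1 encodes neuregulin 1, a ligand of Erbb3 and Erbb4. It had 330 control reads and 1670 CKO reads, a log2 ratio of 1.75 (95% interval 1.58 to 1.93). Nrg2 had 4 and 29 reads and a ratio of 2.02 with a wide interval (0.76 to 4.24). Nrg4, an Erbb4 ligand, had 88 and 89 reads and a ratio of -0.56 (-1.01 to -0.13), which turned to 0.19 as deposited. Hence 2 of 3 were at least 2-fold higher and 0 lower, beside 13.4% and 5.35% over all genes tested, and 3 genes are too few to read a share from. Their median of 1.75 was 0.60 with a filter of at least 50 reads, which Nrg2 did not pass, 1.07 with a pseudocount of 10 and 1.04 as deposited. Per transcript length, Nrg1 stood at 1.57 (control) and 7.08 RPKM (CKO).

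Of 9 genes for ligand shedding, 6 were higher and 3 lower, with 1 at least 2-fold higher, 0 at least 2-fold lower and a median log2 ratio of 0.26. Over all genes tested, 51.5% were higher and 13.4% were at least 2-fold higher, so these counts were close to the background. The gene past 2-fold was Rhbdf2, which encodes iRhom2, a partner needed for maturation of the sheddase Adam17. It had 250 control reads and 914 CKO reads, a ratio of 1.28 (1.08 to 1.49). Timp3, a metalloprotease inhibitor and the most abundant gene of the list, was the lowest at -0.61, with 68104 and 66717 reads. Members of the ADAM family were named after their values were seen. Adam17 had 884 and 1709 reads (0.37), Adam10, which releases Egf and Btc, had 2587 and 4648 (0.26), Adam12 had 155 and 299 (0.36), and Adam9 had 3595 and 4366 (-0.30, 95% interval -0.37 to -0.24, which turned to 0.11 with equal totals and 0.28 as deposited).

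Adaptor proteins, kinases and transcription factors carry the signal onward from the receptors. Of 29 signal transducers of the RAS-ERK, PI3K-AKT, PLC and STAT branches, 13 were higher and 16 lower, beside 51.5% higher over all genes tested, and their median of -0.078 turned to 0.34 with equal totals and 0.51 as deposited. Map2k2, a kinase that activates ERK, was the lowest with a log2 ratio of -0.56, with 3155 and 3199 reads, and was at 0.027 as deposited. Mapk3, which encodes ERK1 and was the most abundant per length, had 2472 and 3816 reads and a ratio of 0.041 (-0.032 to 0.12), which was within counting error of 0.

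Negative regulators of the receptors and of ERK were higher in 15 of 21 cases, with 2 at least 2-fold higher, 0 at least 2-fold lower and a median of 0.14. The median was 0.56 with equal totals and 0.72 as deposited, and the 6 lower genes all turned positive as deposited. The shares over all genes tested were 51.5% higher and 13.4% at least 2-fold higher, so the count past 2-fold was no result about this list. Spred3, an inhibitor of RAS-ERK signalling, had 43 and 191 reads, for a log2 ratio of 1.54 (1.08 to 2.08). Dusp5, a phosphatase of nuclear ERK named after its value was seen, had 35 and 144 reads and a ratio of 1.43 (0.91 to 2.03). The lowest was Cblc, a ubiquitin ligase of the Cbl family that acts on active receptors, at -0.51 with 891 and 935 reads, and at 0.091 as deposited. Errfi1, a direct inhibitor of the Egfr kinase and the most abundant gene of the list, had 11025 and 12443 reads and a ratio of -0.41, which turned to 0.0086 with equal totals and 0.18 as deposited.

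Of 10 genes known to follow ERK activity, 7 were higher and 3 lower, with 3 at least 2-fold higher, 0 at least 2-fold lower and a median of 0.45, beside 51.5% higher and 13.4% at least 2-fold higher over all genes tested. With so few genes, nothing particular to the list is read from these counts. The median was 0.87 with equal totals and 0.98 as deposited, and the 3 lower genes turned positive under both. Etv4, an ETS transcription factor, had 9 and 80 reads, for a log2 ratio of 2.44 (1.57 to 3.75). The other genes past 2-fold, named after their values were seen, were the ephrin receptor gene Epha2 at 1.65 (1.42 to 1.89), with 187 and 881 reads, and Phlda1 at 1.02 (0.77 to 1.28), with 166 and 506 reads. Ccnd1, which encodes cyclin D1 and was both the most abundant and the lowest, had 13010 and 15586 reads and a ratio of -0.32, which turned to 0.095 with equal totals and 0.26 as deposited. Spry2, Spry4, Dusp4 and Dusp6 belonged both to this list and to the negative regulators, so the lists were not independent. Whether these genes followed ErbB signalling was not tested.

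**Figure D4:**
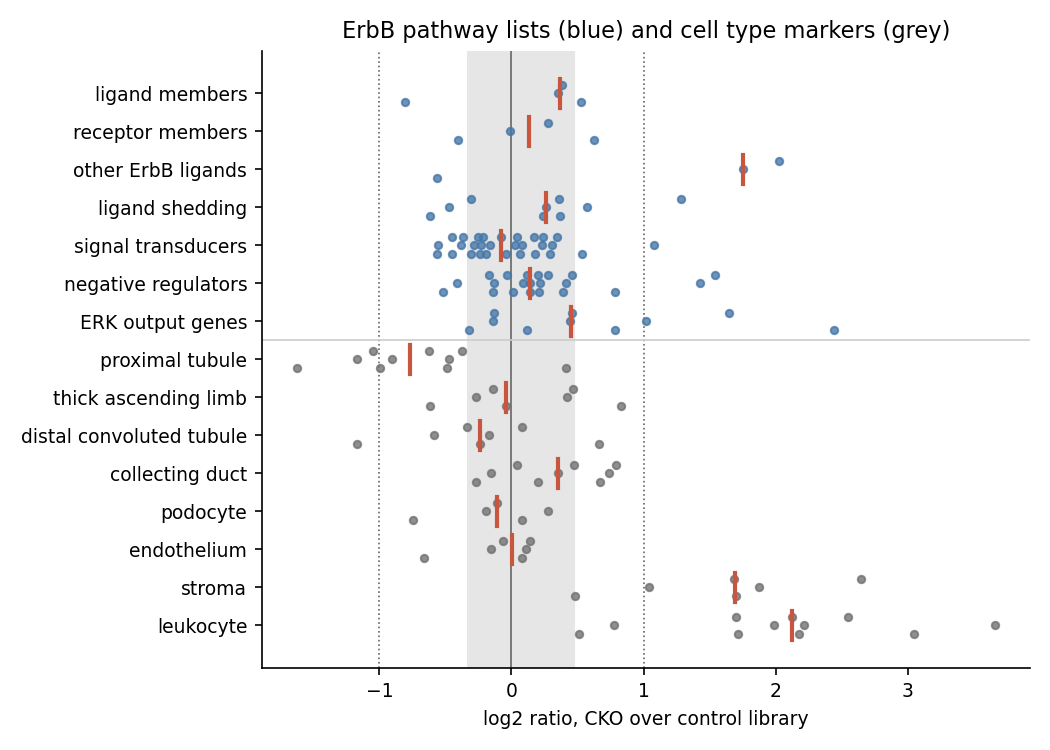
Log2 ratio of the library labelled CKO over the control library for each gene of the family and pathway lists (blue) and of the cell type marker lists (grey), 1 library each. Red lines mark list medians, the grey band the 25th to 75th percentile of all genes past the filter and dotted lines 2-fold; the medians of leukocyte markers (2.13), other ErbB ligands (1.75) and stromal markers (1.69) lay above 1 and that of proximal tubule markers was -0.76, and the medians of transducers, thick ascending limb, distal convoluted tubule and podocyte markers change sign with equal totals and as deposited.

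Markers of the segments that make Egf were set beside it. Of 7 thick ascending limb markers, 3 were higher and 4 lower, beside 51.5% higher over all genes tested. Their median of -0.044 turned to 0.37 with equal totals and 0.54 as deposited. Their summed level was 3656 (control) and 5890 (CKO) reads per 1000000 reads (RPM), but under the main scaling the log2 ratio of the sums was 0.27. Umod, which encodes uromodulin and was the most abundant, had 90047 and 187056 reads, for a log2 ratio of 0.47, whereas Cldn16, a claudin for magnesium and calcium passage, was the highest at 0.83 and Cldn10 the lowest at -0.62. Of 7 distal convoluted tubule markers, 2 were higher and 5 lower, 1 of them by 2-fold or more. Over all genes tested, 51.5% were higher and 5.35% at least 2-fold lower. The median of these 7 markers was -0.24 and turned to 0.18 and 0.35 under the same alternatives. Their sum was 539 and 639 RPM, a scale that follows library totals, whereas under the main scaling the log2 ratio of the sums was -0.17. The sodium-chloride cotransporter gene Slc12a3, the most abundant, had 8573 and 13571 reads (0.078), Trpm6 had 228 and 541 (0.66), and Pvalb, which encodes the calcium-binding protein parvalbumin, had 1055 and 704 (-1.17). Egf was thus lower relative to most of these markers: its ratio to Umod changed 0.413-fold (0.406 to 0.420), to the cotransporter gene Slc12a1 0.628-fold (0.616 to 0.641), to Slc12a3 0.542-fold (0.525 to 0.559) and to Trpm6 0.361-fold (0.309 to 0.422). Slc12a3 and Trpm6 were the 2 higher markers of their list. Other markers lay closer to the log2 ratio of Egf, -0.81. Cldn10 was at -0.62, and Calb1, Emx1, Klhl3 and Wnk4, named after their values were seen, were at -0.58, -0.34, -0.24 and -0.17. Pvalb, which lay below Egf, was the exception among the genes named. The part of these segments' cells in the result was not tested.

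Markers of other cell types differed between the libraries as well. Of 10 proximal tubule markers, 9 were lower, 3 of them by 2-fold or more, beside 51.5% higher and 5.35% at least 2-fold lower over all genes tested. These counts belong to the main scaling. Cubn turned to 0.047 with equal totals, and Cubn, Aqp1 and Slc13a3 turned to 0.21, 0.11 and 0.095 as deposited. The median was -0.76, but -0.35 with equal totals and -0.18 as deposited. The sum of these 10 markers went from 13361 to 9873 RPM. The anion transporter gene Slc22a6 was the lowest at -1.62, Miox, an enzyme of inositol breakdown and the most abundant, was at -1.05, and Slc34a1, named after its value was seen, was at -1.17, while Slc5a12 was the highest at 0.41. Of 14 leukocyte markers 11 were analysed (Cd79a, Ms4a1 and Ly6g were not analysed here). All 11 were higher, 9 of them at least 2-fold, beside 51.5% higher and 13.4% at least 2-fold higher over all genes tested. The median was 2.13, and their sum was 83.2 and 418 RPM. Csf1r, the most abundant in the control library, was the lowest at 0.51, and the lysozyme gene Lyz2 was the highest at 3.66, with 518 and 9836 reads. All 6 stromal markers were higher, 5 of them at least 2-fold, against the same 51.5% and 13.4% of all genes, with a median of 1.69 and sums of 151 and 568 RPM. The collagen gene Col1a1 was the highest at 2.65, and Pdgfrb, the most abundant in the control library, the lowest at 0.48. No analysed leukocyte or stromal marker had 3 or fewer reads in either library, where 1 read is the least that the subtraction allows.

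Over all genes tested, 51.5% were higher, the share to set beside each count of this paragraph. Collecting duct markers were higher in 7 of 9 cases, with sums of 436 and 768 RPM and a log2 ratio of the sums of 0.40 under the main scaling. Their median was 0.35, and 0.77 with equal totals and 0.93 as deposited. The water channel gene Aqp2 was the highest and most abundant at 0.79. Slc4a1 was the lowest at -0.27, though at 0.15 with equal totals and 0.32 as deposited. Endothelial markers were higher in 3 of 6 cases, with a median of 0.0062 that turned to -0.013 with the median log2 ratio of genes set to 0 and to -0.012 with the column minimum subtracted, and was 0.43 with equal totals and 0.59 as deposited. Their sums were 251 and 308 RPM, but under the main scaling the log2 ratio of the sums was -0.13, with Pecam1 the most abundant at -0.066 (0.35 with equal totals and 0.52 as deposited), Emcn the highest at 0.14 and Kdr the lowest at -0.67. Podocyte markers were higher in 2 of 5 cases, with a median of -0.11 that turned to 0.30 with equal totals and 0.48 as deposited. Their sums were 217 and 276 RPM, against a log2 ratio of the sums of -0.071 under the main scaling, with Podxl the most abundant at 0.082 and Synpo the highest at 0.28. The part of any of these cell types in the values of the ErbB genes was not tested.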

How the data were processed

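Whole-kidney RNA of 1 control and 1 CKO library had been prepared with a stranded poly(A) kit. According to the methods and the submitters' processing notes, the authors aligned reads with STAR 2.7.3a to mm10, obtained gene counts from HTSeq and used DESeq2 for normalization. What the authors deposited as normalized counts are whole numbers without a standard unit, taken here as a score. Each column's minimum minus 1 was subtracted, and CKO reads were scaled by the median gene ratio. The pseudocount of log2 ratios was 1, the filter required 10 scaled reads in either library, and 2-fold was the threshold. Intervals were 95% Clopper-Pearson or Poisson intervals, which hold only if the values left after subtraction are read counts, an inference. For ratios between Egf and another gene they were normal intervals on the log scale, and for other gene pairs exact conditional ones. Transcript lengths came from GENCODE M21 for 17820 genes, positions and start regions from RefSeq GRCm38.p6, the patched form of mm10.

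Named genes were the members, Zc3h12b, the highest, lowest and most abundant gene of each list, and the 5 genes most like Egf, and genes outside this rule are named as such or were set in pair ratios. Some genes under the rule are not reported here. The members and lists were chosen with earlier results of these data known. Alternatives were other pseudocounts, filters, scalings, thresholds and transcripts, and the deposited values. The computation was tested on simulated data with known answers. Python 3.11.15, numpy 2.4.6, pandas 2.3.3, scipy 1.17.1 and matplotlib 3.10.9 were used.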

Additional observations from a re-analysis of the deposited data

How the results depend on the processing

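Egf was lower, and Hbegf, Btc, Tgfa, Erbb2 and Erbb4 higher, in the library labelled CKO under every alternative run for these ratios. For the higher genes this was nearly fixed in advance, because the lowest scaling factor was 0.658, beside 0.667 in the main setting. Pseudocounts of 0.1 and 10 and the absence of a filter changed no sign. With equal totals, 3870 genes were at least 2-fold higher and 437 lower, 1 member was at least 2-fold higher, and the sign turned for Egfr (0.41), Erbb3 (0.016), Zc3h12b (0.16) and the medians of signal transducers (0.34), thick ascending limb (0.37), distal convoluted tubule (0.18) and podocyte markers (0.30). With the values as deposited, 3574 genes were higher and 131 lower, 2 members were higher, and the sign turned for Egfr (0.57), Erbb3 (0.19), Zc3h12b (0.42), transducers (0.51), thick ascending limb (0.54), distal convoluted tubule (0.35) and podocyte markers (0.48). The all-gene medians were 0.44 and 0.57 in these settings, and the deposited values also keep the added constants. Egfr also turned with equal upper quartiles (0.020), and the endothelial median with the median log2 ratio set to 0 (-0.013) and with the column minimum subtracted (-0.012). The cause was not tested. A filter of at least 50 reads left 617 genes at least 2-fold lower. At 1.5-fold, 3801 genes were higher and 2423 lower, with 1 member higher (Erbb4) and 1 lower (Egf), and at 4-fold 749 and 166 genes, as the threshold itself sets. Of the other results, 40 kept their sign but left their interval, taken for a list as the medians of its genes' lower and upper bounds, and 166 stayed inside it. That span is wide for short lists: the median of other ErbB ligands, 1.75, stayed inside at 1.07 (pseudocount of 10) and 1.04 (as deposited).

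No paired analysis was possible because there was 1 library per group, and leaving out a replicate was not possible. Depth limits genes with few reads, such as Zc3h12b, Nrg2 and Etv4, with 47, 4 and 9 control reads.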
